A study of Mus musculus with 4 samples.

Results

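The SIN3 complex was followed through 10 of its genes, Sin3b, Sin3a, Hdac1, Hdac2, Phf12, Morf4l1, Kdm5a, Sap30, Suds3 and Arid4b, picked by symbol from the 32285 genes of both single-cell matrices. Bone marrow of C57BL/6 mice was sorted for LSK cells (Lineage-, Sca-1+, cKit+), among which the hematopoietic stem cells and early progenitors are found. Per the study's methods, wild-type cells came from mice with a floxed Sin3B allele on both chromosomes (Sin3B F/F) and knockout cells from Sin3B F/F mice that also carried Vav1-iCre, a Cre recombinase driven by the Vav1 promoter in blood-forming cells. Cells of 2 mice were pooled for each genotype. The mice were untreated males in the homeostasis library and mice that had received 5-fluorouracil (5-FU, toxic to cycling cells) at 100 mg/kg by intraperitoneal injection 9 days earlier in the 5-FU library. Their age was not stated in the sources used. Each library held both genotypes, told apart by a hashtag antibody, B0096 on wild-type and B0157 on knockout cells. There was therefore 1 pool per genotype and library, 4 pools in all, and the conditions and the libraries cannot be told apart.

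Sin3b and its paralog Sin3a encode scaffold proteins that bind no DNA themselves. DNA-binding repressors such as the Mxd family bring them to promoters, where the scaffold holds the histone deacetylases Hdac1 and Hdac2, whose removal of acetyl groups closes chromatin. Sap30, Suds3 and Arid4b belong to the core that stabilizes or stimulates the deacetylase around Sin3a, while Phf12, Morf4l1 and the lysine demethylase Kdm5a are found in the form of the complex built on Sin3b. In blood cells both paralogs are studied for their part in cell cycle exit and in keeping stem cells fit to differentiate.

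All 10 genes were found in both matrices and all passed the filter on low counts. The submitters' processing notes name the build mm9, while the positions given here are those of the GENCODE annotation of GRCm38. There, Sin3b (ENSMUSG00000031622) lies at chr8:72723285-72758201 on the plus strand and Sin3a (ENSMUSG00000042557) at chr9:57072040-57128366 on the plus strand. Sap30 is also on chromosome 8, at chr8:57482707-57487860 on the minus strand. Sin3b, Hdac1, Hdac2 and Sap30 overlapped no other annotated gene. The other 6 overlapped at least 1 gene on the opposite strand, and whether strand was used in counting was not stated in the sources used. Arid4b also overlapped 2 genes on its own strand, whose reads strand would not separate from its own. Morf4l1 has an annotated processed pseudogene, Morf4l1-ps1, so reads that match both are uncertain.

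At homeostasis 10295 wild-type and 4122 knockout cells were kept, and after 5-FU 4841 and 3295. The pools held between 32084690 and 83926888 unique molecular identifiers (UMIs, each a counted RNA molecule), with medians of 6617.5 to 10939 UMIs per cell. Cells given neither hashtag made up 6283 of 23931 cells at homeostasis and 3290 of 12753 after 5-FU and entered no comparison of genotypes, and the libraries shared 76 cell barcodes. Kit and Ly6a, which encode the cKit and Sca-1 of the gate, and Cd34 and the blood cell gene Ptprc were detected in all pools, between 76.7 and 372.6 counts per 1e6 UMIs (CPM) in each library. Of the markers of cells outside the gate, the 5 mature neutrophil genes summed to 52.2 CPM in knockout and 11.1 CPM in wild-type cells at homeostasis, and to 4.4 and 5.6 CPM after 5-FU. The 4 T and NK cell genes summed to 71.0 CPM in knockout and 104.9 CPM in wild-type cells at homeostasis and to 110.0 and 174.2 CPM after 5-FU, with Cd3e, a T cell receptor subunit, at 0 in all pools. Only 2 of the 4 had a UMI in both wild-type pools and in the 5-FU knockout pool, and 3 in the homeostasis knockout pool. Cd3e, Cd3g and Klrb1c were also among the lineage genes used to remove cells, so the sum does not measure T or NK cells. The 4 mature erythroid genes summed to 48.8 and 46.7 CPM at homeostasis and to 93.3 and 60.0 CPM after 5-FU. B cell genes lay between 25.9 and 34.5 CPM and macrophage genes between 2.3 and 7.5 CPM over the pools. After thinning to 4000 UMIs per cell, those with at least 2 different markers of 1 class, and more than of any other, were called stem, myeloid, megakaryocyte-erythroid or lymphoid marker-positive. Stem marker-positive cells had a share of 45.1% among wild-type cells and 59.4% among knockout cells at homeostasis, and of 40.3% and 50.7% after 5-FU, while the megakaryocyte-erythroid share was 1.97% and 2.96% in the homeostasis library and 10.51% and 14.69% in the other. The myeloid share was 7.003% in the wild type and 3.28% in the knockout at homeostasis and 8.82% and 4.67% after 5-FU, and the lymphoid share 15.8% and 8.66%, then 5.66% and 3.13%. These classes are broad ranges rather than types, since 37.5% to 49.2% of stem, 50.6% to 73.3% of myeloid, 44.4% to 72.4% of megakaryocyte-erythroid and 62.8% to 70.1% of lymphoid marker-positive cells led by a single marker.

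Sin3b, the targeted scaffold, was the member with the largest difference between genotypes in both libraries. At homeostasis it was at 81.9 CPM in wild-type cells (95% counting interval 79.9 to 83.8, 6871 UMIs) while knockout cells had 23.2 CPM (21.6 to 24.9, 744 UMIs). After 5-FU it was at 112.6 CPM (109.8 to 115.6) in wild-type and 15.1 CPM (14.0 to 16.3) in knockout cells. Knockout cells thus kept 28.3% of the wild-type level at homeostasis and 13.4% after 5-FU, log2 ratios of -1.82 (-1.93 to -1.71) and -2.90 (-3.02 to -2.78). These intervals, like all intervals within a library, cover counting error only. CPM come from 3' reads and are not divided by gene length, so levels are compared within a gene and never between genes.

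**Figure D1:**
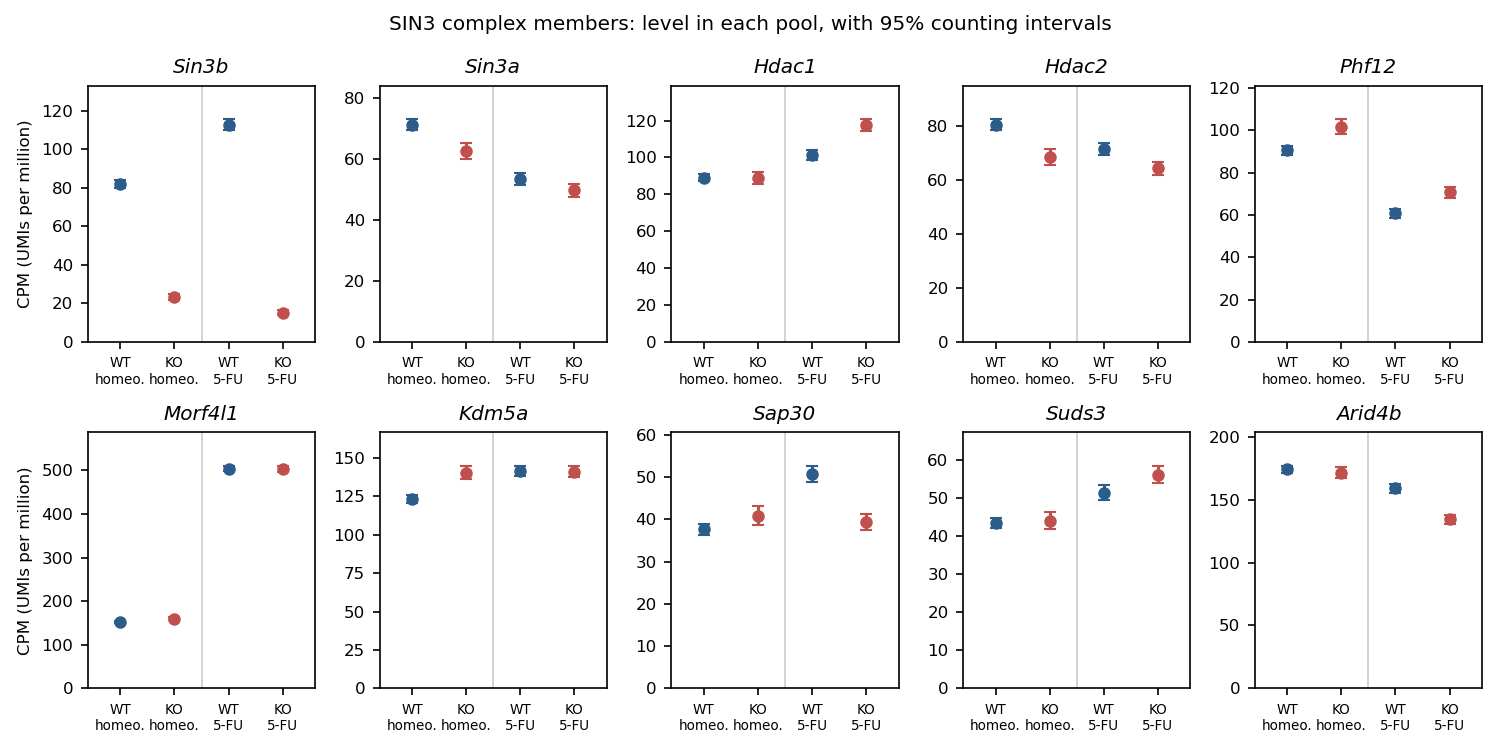
Level of each member in the 4 pools, in CPM from 0 upward with a separate axis per gene (WT, wild type, blue; KO, knockout, red; bars, 95% Poisson counting intervals). In knockout cells Sin3b sits at 23.2 CPM beside 81.9 CPM of the wild type at homeostasis, and at 15.1 beside 112.6 CPM after 5-FU, while the other 9 genes differ less, the most for Sap30 after 5-FU, at 39.4 beside 50.7 CPM.

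The difference in Sin3b was tested over the 4 pools with library as a block. In edgeR's quasi-likelihood test with Benjamini-Hochberg adjustment over 17236 genes, Sin3b had a log2 fold change of -2.35 (SE 0.24, adjusted p 0.0282) in all kept cells. Within stem marker-positive cells it was -2.16 (SE 0.17, adjusted p 0.00195) in the same edgeR test over 15383 genes. Sin3b was lower in knockout cells in 2 of 2 libraries. It was the only 1 of the 10 members called in either fit, against 0.905% of all genes tested in all kept cells and 2.48% in stem marker-positive cells.

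Sin3b was low in knockout cells of every class. At homeostasis wild-type levels were 80.5 CPM in stem, 85.0 in myeloid, 78.8 in megakaryocyte-erythroid and 85.5 in lymphoid marker-positive cells. In knockout cells they were 24.1, 18.9, 16.4 and 23.5 CPM in the same order. No 2 neighbours in the order of classes lay apart beyond their counting intervals in either genotype, and the log2 ratio of the highest over the lowest wild-type class was 0.11 (-0.13 to 0.37). The classes were ranked by these same values. A ratio of the highest over the lowest, here and below, thus tends to overstate the difference, which its interval does not allow for.

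After 5-FU the wild-type order was megakaryocyte-erythroid (120.4 CPM), stem (113.7), myeloid (109.7) and lymphoid (100.1), and again no neighbours were apart. The highest exceeded the lowest by 0.26 (0.07 to 0.46) on the log2 scale, a pair picked by its values. Knockout cells after 5-FU had a different order. Stem marker-positive knockout cells were at 18.8 CPM (16.8 to 20.9), above the megakaryocyte-erythroid cells at 13.1 CPM (10.9 to 15.7), the lymphoid cells at 12.3 CPM (6.9 to 20.2) and the myeloid cells at 10.9 CPM (7.6 to 15.1). The step from stem to the next class was beyond counting error, and the log2 ratio of stem over myeloid was 0.77 (0.29 to 1.34). The genotype difference was accordingly smallest in stem cells, at a log2 ratio of -2.60 (-2.77 to -2.43), and between -3.32 and -2.98 in the other 3 classes. At homeostasis it was also smallest in stem cells, -1.74 (-1.89 to -1.60), and reached -2.23 (-3.01 to -1.58) in megakaryocyte-erythroid cells. The knockout value there rested on 20 UMIs. Knockout cells after 5-FU had median depths of 9299 (stem), 18314.5 (megakaryocyte-erythroid), 20597.5 (myeloid) and 10076 UMIs (lymphoid). Without thinning, the share holding a Sin3b UMI was 18.3%, 21.1%, 19.5% and 12.6% in this order. In thinned cells it was 7.79%, 3.93%, 3.90% and 1.94%. The part of depth in the order of classes and in the genotype differences was not tested.

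**Figure D2:**
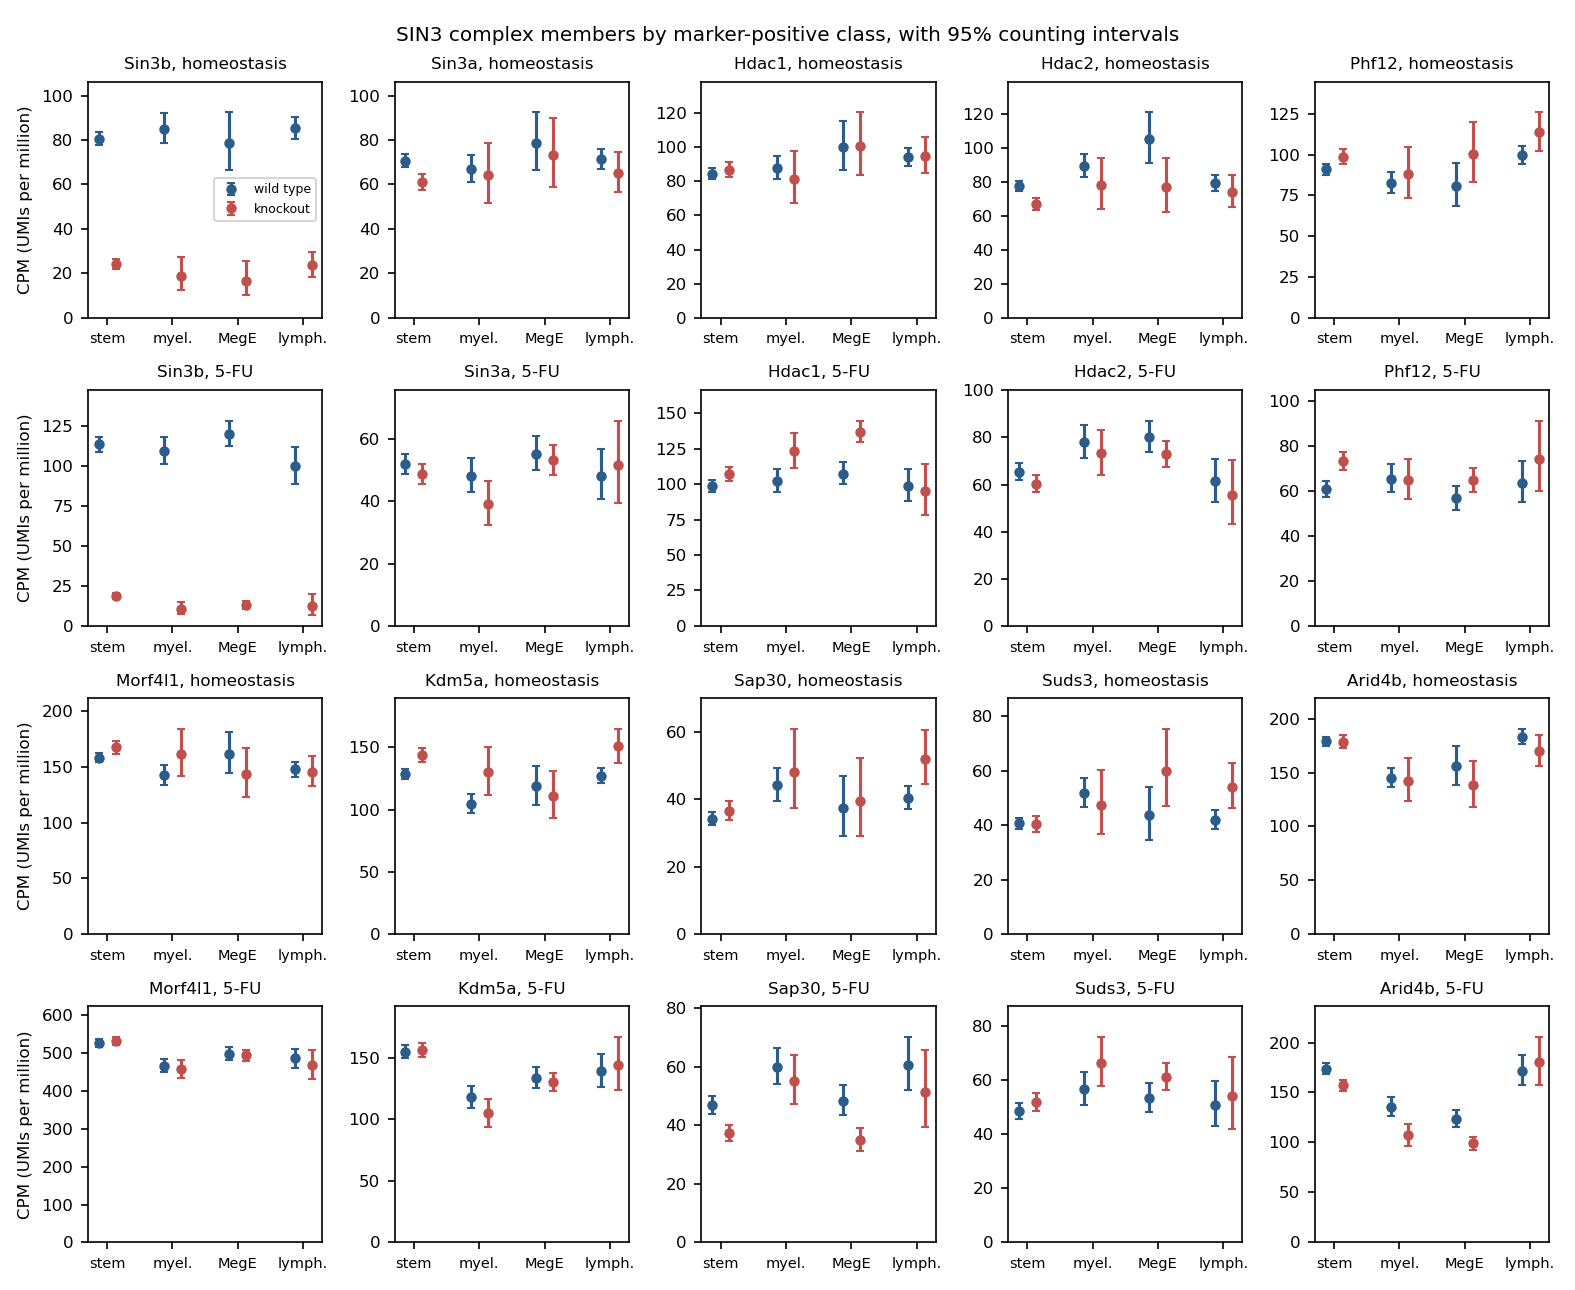
Level of each member in stem, myeloid (myel.), megakaryocyte-erythroid (MegE) and lymphoid (lymph.) marker-positive cells, in CPM from 0 upward, wild type in blue and knockout in red, with 95% Poisson counting intervals and 1 panel per gene and library. Sin3b is low in knockout cells of all 4 classes. In CPM, Arid4b and Kdm5a are lowest in myeloid or MegE cells, and Hdac2 is higher in MegE and myeloid than in stem cells of the wild type. The part of depth in the order of classes was not tested.

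The remaining Sin3b UMIs of knockout cells were described at 1 depth by thinning cells to 4000 UMIs each, which left out the shallower cells. At homeostasis 9810 of the 10295 wild-type cells were deep enough, as were 3897 of the 4122 with the knockout hashtag, and after 5-FU 4327 of 4841 and 3127 of 3295 were. At that depth 28.3% of wild-type cells and 8.65% of the knockout (exact binomial interval 7.78% to 9.57%) held a Sin3b UMI at homeostasis, and 34.5% and 6.49% (5.65% to 7.41%) after 5-FU. Without thinning the wild-type shares were 46.4% and 59.8%, and the knockout shares 15.96% and 17.72%. Cells with 2 or more Sin3b UMIs at the fixed depth had a share of 4.64% (wild type) and 0.590% (knockout) at homeostasis, and 7.40% and 0.256% after 5-FU. No cell type known to lack Sin3b was at hand in this sort to give a background share. In barcodes of 1 to 100 UMIs at homeostasis, which hold mostly free RNA, Sin3b was at 66.7 CPM (60.0 to 73.9), between the levels of the genotypes. Which exons were deleted was not stated in the sources used, and 3' reads outside them would still be counted.

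The Sin3b level was also set against the hashtags. Cells with both hashtags were at 63.2 CPM at homeostasis and 61.3 CPM after 5-FU, between the genotypes. Cells with neither hashtag, 5632 and 2990 after the quality filters, were at 28.7 CPM (27.0 to 30.4) and 21.4 CPM (19.2 to 23.7), much nearer to the knockout than to the wild-type level in both libraries. Within wild-type cells Sin3b stood higher where their own hashtag held more of the hashtag UMIs. It was at 74.7, 85.5 and 93.0 CPM at homeostasis, and at 78.3, 112.1 and 121.6 CPM after 5-FU, for own-hashtag shares of 50% to 80%, 80% to 90% and 90% to 100%. At homeostasis the interval of the last bin, 83.9 to 102.9 CPM, held the value of the bin before. Knockout cells of the same bins were at 22.9, 23.1 and 13.4 CPM at homeostasis, the last from 3 UMIs, and at 18.7, 14.7 and 13.3 CPM after 5-FU. The 50% to 80% bin held 3449 of the 4122 knockout cells at homeostasis, and calling cells by 1 hashtag with at least 80% of hashtag UMIs in place of HTODemux kept 877 knockout cells there, with a Sin3b log2 ratio of -1.89. The 71 knockout cells at homeostasis whose own hashtag held less than 50% were at 39.4 CPM (24.7 to 59.7). The part of wrongly assigned cells in the remaining Sin3b UMIs was not tested.

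**Figure D3:**
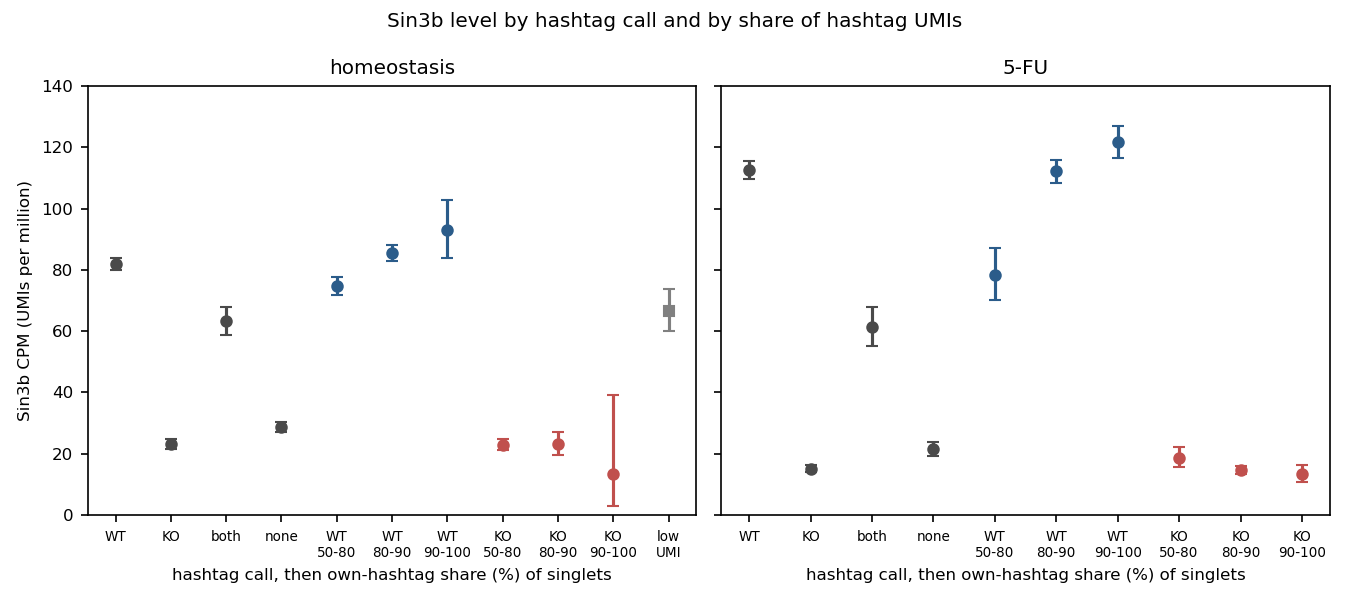
Sin3b level in CPM by hashtag call (grey: WT, KO, both, none), by the share of a singlet's hashtag UMIs that is its own hashtag (blue wild type, red knockout, in %), and in barcodes of 1 to 100 UMIs (square, homeostasis only), with 95% Poisson counting intervals. Cells with neither hashtag sit at 28.7 and 21.4 CPM, next to the knockout cells at 23.2 and 15.1 CPM, and wild-type cells climb with their own-hashtag share.

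Sin3a, the paralog that can scaffold its own SIN3 complex, did not stand higher in Sin3b knockout cells. It was at 71.1 CPM in wild-type and 62.5 CPM in knockout cells at homeostasis, and at 53.3 and 49.6 CPM after 5-FU. The knockout pools were the lower ones in both libraries, with log2 ratios of -0.19 (-0.26 to -0.11) and -0.10 (-0.19 to -0.02). Over the 4 pools its log2 fold change was -0.14 (SE 0.08, 95% interval -0.33 to 0.06, adjusted p 0.548, edgeR quasi-likelihood test with Benjamini-Hochberg adjustment). That interval measures only the spread between these 4 pools, with 1 residual degree of freedom, so it does not exclude a rise in other mice. In stem marker-positive cells the edgeR estimate was -0.15 (interval -0.33 to 0.03, adjusted p 0.422). Within classes Sin3a was lower in knockout cells in 7 of 8 comparisons, the exception being lymphoid cells after 5-FU, and 16.3% of the 7183 genes counted well enough in every class were lower in 7 or more. Among wild-type classes Sin3a lay between 67.0 CPM in myeloid and 78.8 CPM in megakaryocyte-erythroid cells at homeostasis and between 48.2 and 55.4 CPM after 5-FU, with no neighbours apart and log2 ratios of the highest over the lowest class of 0.24 (-0.04 to 0.50) and 0.20 (-0.08 to 0.49). Among knockout cells after 5-FU, the myeloid class was the lowest at 39.1 CPM (32.6 to 46.5) and lay apart from stem cells at 48.8 CPM. Thinned to 4000 UMIs, 23.5% of wild-type cells held a Sin3a UMI and 21.8% of knockout cells did so at homeostasis, and 19.3% and 18.1% after 5-FU.

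The deacetylases Hdac1 and Hdac2 form the catalytic pair of the complex. Hdac1 was at 89.0 CPM in wild-type and 88.7 CPM in knockout cells at homeostasis, and at 101.4 and 117.4 CPM after 5-FU. Its log2 ratio was -0.01 (-0.07 to 0.06) in the first library and 0.21 (0.16 to 0.27) in the second, where it was 0.12 (0.03 to 0.21) in stem, 0.27 (0.09 to 0.46) in myeloid, 0.35 (0.22 to 0.48) in megakaryocyte-erythroid and -0.05 (-0.38 to 0.26) in lymphoid cells. The interval of stem cells overlapped that of myeloid cells and lay below that of megakaryocyte-erythroid cells. The estimate over the 4 pools was 0.11 (interval -0.11 to 0.34, adjusted p 0.684, edgeR quasi-likelihood test with Benjamini-Hochberg adjustment).

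Hdac2 was lower in knockout cells in both libraries. It was at 80.7 CPM in wild-type and 68.6 CPM in knockout cells at homeostasis, and at 71.5 and 64.5 CPM after 5-FU, log2 ratios of -0.23 (-0.30 to -0.16) and -0.15 (-0.22 to -0.08). It lay lower in 8 of 8 class comparisons, as 6.14% of genes did, yet the estimate of -0.18 over the 4 pools (interval -0.38 to 0.02, adjusted p 0.408, edgeR quasi-likelihood test with Benjamini-Hochberg adjustment) did not pass. Among wild-type classes at homeostasis Hdac2 had the largest ratio of the highest over the lowest class of the 10 members, 0.45 (0.23 to 0.65) on the log2 scale. Megakaryocyte-erythroid cells were highest at 105.6 CPM (91.5 to 121.3), apart from myeloid cells at 89.7 CPM, which were in turn apart from lymphoid (79.6 CPM) and stem cells (77.6 CPM). After 5-FU, megakaryocyte-erythroid (80.4 CPM) and myeloid cells (78.0 CPM) did not lie apart from each other but both exceeded stem (65.5 CPM) and lymphoid cells (61.4 CPM). The megakaryocyte-erythroid class at homeostasis held only 203 wild-type and 122 knockout cells, and its Hdac2 ratio was -0.45 (-0.82 to -0.09). The markers of this class themselves summed to 1055 CPM in its wild-type and 2514 CPM in its knockout cells, and their part in the ratio was not tested.

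The subunits of the Sin3b-type complex were Phf12, a PHD finger protein that reads histone tails, Morf4l1, a chromodomain protein that binds methylated histone H3, and Kdm5a, which removes methyl groups from lysine 4 of histone H3. Phf12 was the only member besides Sin3b with an unadjusted p below 0.05 in the edgeR fits, where 13.5% of all genes in all kept cells and 15.8% in stem marker-positive cells were below it. In DESeq2 Sin3b alone of the members was, where 918 genes in all kept cells and 696 in stem marker-positive cells were. Genes with an adjusted p there numbered 14153 and 13865. Phf12 was at 90.5 CPM in wild-type and 101.6 CPM in knockout cells at homeostasis and at 60.8 and 70.6 CPM after 5-FU, log2 ratios of 0.17 (0.11 to 0.23) and 0.22 (0.14 to 0.29). In edgeR's quasi-likelihood test the fold change was 0.20 (SE 0.08, unadjusted p 0.0419, Benjamini-Hochberg adjusted p 0.350) in all kept cells and 0.20 (unadjusted p 0.0356, adjusted p 0.271) in stem marker-positive cells, neither of which passed. Knockout cells held more Phf12 in 7 of 8 class comparisons, against 13.9% of genes higher in 7 or more, and the exception, myeloid cells after 5-FU, had a ratio of -0.01 (-0.26 to 0.23). Across wild-type classes at homeostasis Phf12 was highest in lymphoid cells at 99.5 CPM, apart from stem cells at 90.8 CPM, which lay apart from myeloid cells at 82.7 CPM, with megakaryocyte-erythroid cells at 80.9 CPM. After 5-FU wild-type levels ran from 56.7 CPM in megakaryocyte-erythroid to 65.6 CPM in myeloid cells with no neighbours apart. The highest exceeded the lowest by 0.21 (0.01 to 0.41) on the log2 scale, a pair picked by its values. In knockout cells after 5-FU, lymphoid (74.5 CPM) and stem cells (73.3 CPM) were again above the others in CPM, and stem cells lay apart from megakaryocyte-erythroid cells (64.9 CPM). The thinned shares there were 21.4% in lymphoid, 25.5% in stem, 23.3% in megakaryocyte-erythroid and 20.1% in myeloid cells. The part of depth in these orders of classes was not tested.

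Morf4l1 lay close together between genotypes in both libraries. It was at 152.8 CPM in wild-type and 160.1 CPM in knockout cells at homeostasis and at 503.7 CPM in both pools after 5-FU, log2 ratios of 0.07 (0.02 to 0.11) and 0.00 (-0.03 to 0.03). With 26328 wild-type UMIs after 5-FU it was also the best counted. The values of the libraries stand side by side here without a comparison, since library and condition coincide. Stem cells held the most Morf4l1 after 5-FU, 525.6 CPM in wild-type and 531.1 CPM in knockout cells, apart from the next class in both genotypes, and myeloid cells held the least (466.0 and 456.3 CPM).

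Kdm5a differed between genotypes in the homeostasis library and not in the 5-FU library beyond counting error. It was at 123.3 CPM in wild-type and 140.5 CPM in knockout cells at homeostasis, a log2 ratio of 0.19 (0.14 to 0.24), and at 141.7 and 141.2 CPM after 5-FU, a ratio of -0.00 (-0.05 to 0.04). By the same counting rule 24.7% of all genes counted were higher in knockout cells at homeostasis. The homeostasis difference had an interval above 0 in stem (0.16), myeloid (0.32) and lymphoid cells (0.25) and not in megakaryocyte-erythroid cells (-0.10, -0.42 to 0.22). Whether the libraries differ could not be tested with 1 pool per genotype in each. Kdm5a was lowest in myeloid cells in 3 of the 4 pools, at 104.6 CPM against 128.4 CPM in stem cells of the wild type at homeostasis and 118.0 against 154.9 CPM after 5-FU. After 5-FU the wild-type stem cells lay apart above lymphoid cells (139.3 CPM), and the myeloid cells apart below megakaryocyte-erythroid cells (133.8 CPM).

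Sap30, Suds3 and Arid4b complete the core around the deacetylases. Sap30 bridges other proteins to the scaffold, Suds3 (also known as SDS3) holds the deacetylase in an active state, and Arid4b is a DNA-binding ARID and chromodomain protein. Sap30 went opposite ways in the libraries. It was at 37.6 CPM in wild-type and 40.8 CPM in knockout cells at homeostasis and at 50.7 and 39.4 CPM after 5-FU, log2 ratios of 0.12 (0.02 to 0.21) and -0.36 (-0.45 to -0.28), the second being the largest difference among the 9 members other than Sin3b. Its ratio was positive in 4 of 4 classes at homeostasis and negative in 4 of 4 after 5-FU, from 0.37 (0.11 to 0.62) in lymphoid cells at homeostasis to -0.46 (-0.68 to -0.24) in megakaryocyte-erythroid cells after 5-FU. The interval left out 0 in 1 of these 4 classes at homeostasis and in 2 of 4 after 5-FU. How many of all genes have such a class pattern was not counted. The estimate over the 4 pools was -0.11 with the widest interval of these 9 genes, -0.41 to 0.18 (adjusted p 0.766, edgeR quasi-likelihood test with Benjamini-Hochberg adjustment).

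Suds3 was at 43.4 CPM in wild-type and 44.1 CPM in knockout cells at homeostasis and at 51.4 and 56.2 CPM after 5-FU, log2 ratios of 0.02 (-0.07 to 0.11) and 0.13 (0.05 to 0.21). Its homeostasis ratio was 0.37 (0.11 to 0.61) in lymphoid and 0.46 (-0.01 to 0.93) in megakaryocyte-erythroid cells. In stem cells it was -0.01 (-0.14 to 0.12) and in myeloid cells -0.12 (-0.52 to 0.25). Arid4b was at 174.1 and 171.7 CPM at homeostasis and at 159.1 and 134.4 CPM after 5-FU, ratios of -0.02 (-0.07 to 0.02) and -0.24 (-0.29 to -0.19). After 5-FU the ratio of Arid4b was -0.34 (-0.53 to -0.16) in myeloid, -0.32 (-0.46 to -0.19) in megakaryocyte-erythroid, -0.14 (-0.22 to -0.07) in stem and 0.07 (-0.17 to 0.30) in lymphoid cells. Knockout cells had medians of 20597.5 UMIs against 12820 in wild-type myeloid cells, and 18314.5 against 13001 in megakaryocyte-erythroid cells. The markers of these classes summed to 2227 against 2413 CPM and to 2495 against 1852 CPM. Their part and that of depth in the 5-FU class ratios of Arid4b, Hdac1 and Sap30 were not tested. Neither gene passed the edgeR quasi-likelihood test with Benjamini-Hochberg adjustment, with estimates of 0.09 (adjusted p 0.746) and -0.12 (adjusted p 0.625).

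Arid4b divided the classes in the same way in every pool. In all 4 pools stem and lymphoid cells lay above myeloid and megakaryocyte-erythroid cells with a step beyond counting error between them, for example 173.7 and 172.0 against 135.9 and 123.9 CPM in wild-type cells after 5-FU. The same step ran from 157.1 to 107.0 CPM in knockout cells after 5-FU, where the log2 ratio of the highest over the lowest class was 0.86 (0.64 to 1.07). Sap30 had another order. Stem cells held its lowest level at homeostasis in both genotypes, 34.2 CPM in wild type against 44.1 CPM in myeloid cells and 36.6 CPM in knockout against 52.0 CPM in lymphoid cells, though single steps between neighbours lay within their intervals. After 5-FU, lymphoid (60.7 CPM) and myeloid cells (60.0 CPM) of the wild type lay apart above megakaryocyte-erythroid (48.4 CPM) and stem cells (46.9 CPM). In CPM Suds3 was lowest in stem cells of all 4 pools, between 40.4 and 51.8 CPM. No neighbours were apart, but the log2 ratio of the highest class over stem cells left out 0 in all 4 pools, at 0.35 (0.18 to 0.51) and 0.58 (0.20 to 0.92) at homeostasis (wild type, then knockout) and 0.23 (0.05 to 0.40) and 0.36 (0.14 to 0.57) after 5-FU. Both classes of each ratio were picked by their values, which these intervals do not allow for. Among thinned wild-type cells at homeostasis, the share with a Suds3 UMI was 15.0% in stem and 18.3% in myeloid cells. It was 14.3% in megakaryocyte-erythroid and 13.8% in lymphoid cells, while in the other pools stem cells had the lowest thinned share. The part of depth in these orders of classes was not tested.

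**Figure D4:**
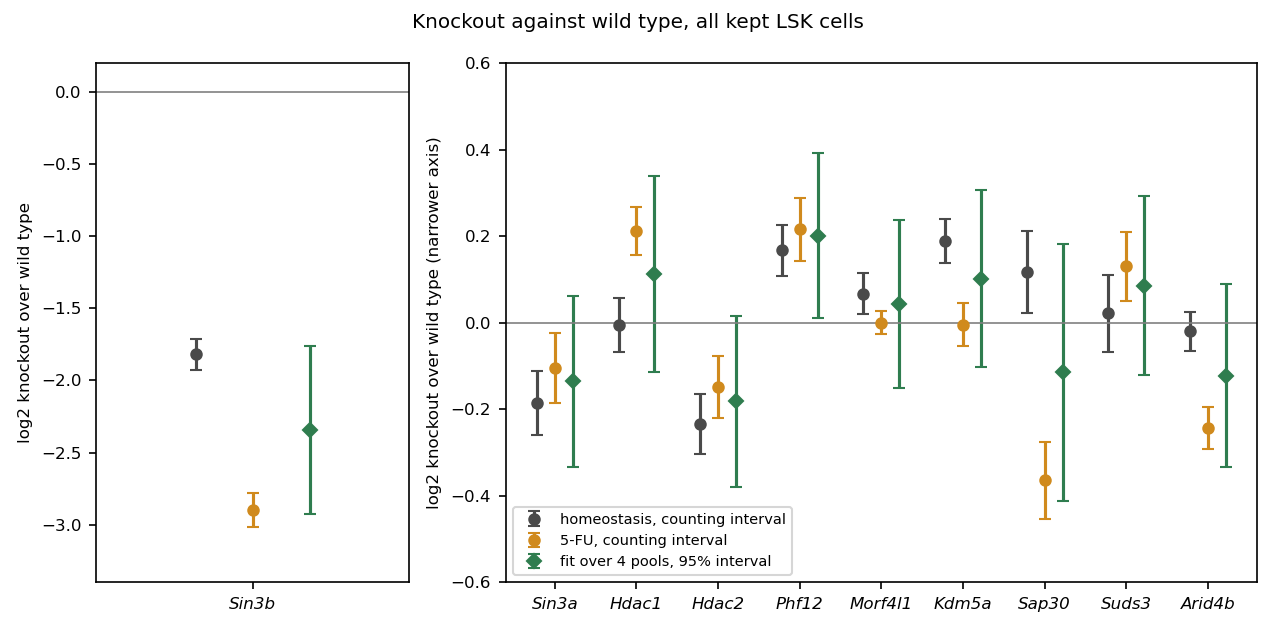
Log2 ratio of knockout over wild type in all kept cells, for Sin3b on the left and the other members on a narrower axis on the right (grey, homeostasis; orange, 5-FU, both with 95% counting intervals; green diamonds, edgeR estimate over 4 pools with its 95% interval). Sin3b lies between -2.90 and -1.82, while the other 9 genes lie between -0.36 and 0.22 and only the fitted interval of Phf12 leaves out 0.

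The 9 members other than Sin3b were then set against all genes. At homeostasis 6 of the 9 had a counting interval that left out 0, 4 higher and 2 lower in knockout cells, where 47.9% of the 15545 genes counted did so, 24.7% higher and 23.3% lower. After 5-FU there were 7 of the 9, 3 higher and 4 lower, against 51.0% of 13521 genes, 23.4% higher and 27.6% lower. None of the 9 reached a log2 ratio of 0.5 in size in either library, while 13.5% of genes did at homeostasis and 11.5% after 5-FU. Their median size of ratio was 0.12 at homeostasis and 0.15 after 5-FU, beside 0.15 for all genes in each library. The genes counted needed only 50 UMIs over both genotypes, while Sap30, the least counted of the 9, had 3159 and 1310 at homeostasis. Poorly counted genes have more scattered ratios and wider intervals, and these shares and sizes were not matched for count. Over the 4 pools their estimates ran from -0.18 to 0.20 with bounds from -0.41 to 0.39, and the smallest of their adjusted p was 0.350 in edgeR's quasi-likelihood test with Benjamini-Hochberg adjustment. Intervals of that width leave room for changes of these sizes, so the fit does not show that the levels were equal. The sum of the T and NK cell genes, resting on 2 or 3 of them, moved with genotype in both libraries. So did the shares of all 4 marker-positive classes. The mature neutrophil genes moved at homeostasis and the mature erythroid genes after 5-FU, as given above. The part of all these in the ratios was not tested. Within stem marker-positive cells alone the ratios of the 9 genes lay between -0.21 and 0.16 in the homeostasis library and between -0.33 and 0.27 in the other. Fewer RNA molecules per cell and fewer cells that express a gene cannot be told apart in such sums.

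The wider SIN3 network was described through 3 lists of partner genes. The first held 15 other SIN3 subunits and the second 13 DNA-binding recruiters and their partners. The third held 18 genes of other class I deacetylases and of other complexes that use such enzymes (NCoR, NuRD and CoREST). All were measured, and 0 genes of the 3 lists passed edgeR's quasi-likelihood test with Benjamini-Hochberg adjustment in all kept cells or in stem marker-positive cells. DESeq2, which called Sin3b alone of the members and 1.45% of genes in all kept and 0.981% in stem cells, also called 0. At an unadjusted edgeR p under 0.05 there were 1, 0 and 2 genes of the lists in all kept cells and 2, 0 and 2 in stem cells, against the shares of 13.5% and 15.8% of all genes given above. The median log2 ratios of the lists at homeostasis were -0.05, -0.05 and -0.06, beside 0.01 for all genes, and after 5-FU -0.08, -0.01 and -0.04, beside -0.02.

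Among the other subunits, the lowest ratios by the mean of both libraries were those of Rbbp7, a histone chaperone shared by many chromatin complexes, and of Sinhcaf, a subunit of Sin3a complexes. Rbbp7 was at 260.0 CPM in wild-type and 186.6 CPM in knockout cells at homeostasis, a log2 ratio of -0.48 (-0.52 to -0.44), and at 154.9 and 151.0 CPM after 5-FU, a ratio of -0.04 (-0.08 to 0.01). Sinhcaf had ratios of -0.30 (-0.40 to -0.21) and -0.18 (-0.26 to -0.11) and an edgeR fold change of -0.28 (SE 0.08, Benjamini-Hochberg adjusted p 0.145) in stem cells. After 5-FU alone Kdm5b, a demethylase related to Kdm5a and named here after its value was seen, was lowest at -0.36 (-0.41 to -0.31), beside 0.01 (-0.04 to 0.06) at homeostasis. The highest by the mean were Sap18, at 0.05 and 0.14, and Sap30l, the paralog of Sap30, at 0.23 (0.14 to 0.32) and -0.09 (-0.17 to -0.01).

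By the same mean, among the recruiters, Mxd1 (0.06 and 0.29) and Mxd3 (-0.22 and 0.56) were highest, both of them antagonists of Myc that dimerize with Max, and Mnt (-0.21 and -0.17), a related repressor, and the zinc finger repressor Klf10 (-0.05 and -0.26) lowest. Mxd3 rested on few molecules, 132 to 402 UMIs per pool. Among the other complexes, Gps2 of NCoR (0.19 and 0.28) and Mta2 of NuRD (0.20 and 0.10) were highest, and the NuRD subunits Mta3 (-0.26 and -0.37) and Mbd3 (-0.19 and -0.04) lowest. Mta3 had an edgeR fold change of -0.31 (SE 0.08, Benjamini-Hochberg adjusted p 0.175) in all kept cells, the smallest adjusted p of the lists in that fit.

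The genes whose profile was most like that of each paralog were sought over the 16 class pools (4 classes, 2 genotypes and 2 libraries), as Pearson's r of log2(CPM + 1) centred within a library, among 13089 genes. These r describe pools that share libraries and mice and carry no p. For Sin3b, where the profile is mostly the genotype difference, they were Tgif2 (r 0.946), Slc39a10 (0.939) and Auts2 (0.923). Auts2, a gene known from neurodevelopment, was at 219.2 CPM in wild-type and 66.8 CPM in knockout cells at homeostasis and at 14.5 and 3.1 CPM after 5-FU. Tgif2, a homeodomain repressor, was at 13.9 and 8.9 CPM and at 14.4 and 8.4 CPM. For Sin3a they were Tanc1 (r 0.922), Zc3h4 (0.891) and Pitpnc1 (0.886), each also lower in the knockout than in the wild-type pool of both libraries, Zc3h4 for example at 57.1 and 53.2 CPM at homeostasis and at 39.6 and 37.6 CPM after 5-FU. The r between the paralogs was 0.407.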

How the data were processed

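Single-cell RNA of LSK cells was measured with hashtag antibodies in 2 libraries. The authors deposited raw UMI counts per gene and barcode, made with Cell Ranger 4 (homeostasis) and 6.0.1 (5-FU) per the file headers. The submitters' processing notes name mm9, and the alignment parameters were not stated in the sources used. Cells were called at 10% of the 99th percentile of the 10000 largest barcodes where the matrix was unfiltered. Genotypes came from HTODemux (quantile 0.99, Seurat 5.3.0), which also removed cells with both hashtags as doublets, with the hashtag of each genotype taken from the study's methods. The highest and the lowest 2% of cells by UMIs, genes detected and mitochondrial share, and cells with at least 2 UMIs of 9 lineage genes were removed.

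UMIs were summed per genotype, library and class. Within a library, CPM have exact Poisson intervals, log2 ratios exact conditional binomial intervals with 0.5 counts added to each sum, and shares exact binomial intervals, without a test. Over the 4 pools, edgeR 4.0.16 (quasi-likelihood, TMM, filterByExpr, library as a block, 1 residual degree of freedom, Benjamini-Hochberg over all genes) gave the p-values, which measure only the spread between these pools. DESeq2 1.42.0, library size scaling, no low-count filter, no lineage removal, 3 markers per class, an 80% hashtag rule, thinning and leaving out a library were alternatives. R 4.3.3 and Python 3.11.15 were used, and the fits were tested on simulated data.

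The members and lists were chosen with earlier results of these data known. Named genes were all members, partner genes called in a fit, the 2 highest and 2 lowest of each list by mean log2 ratio of the libraries (at least 50 UMIs in each), and the 3 genes most like Sin3b and Sin3a.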

Additional observations from a re-analysis of the deposited data

Results flagged for a closer look

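Genes of the members and the 3 partner lists whose difference between genotypes went opposite ways in the libraries, with both counting intervals leaving out 0, are given here, named after their values were seen. They were 8 of 56 genes in all kept cells, where 8.44% of the 13090 genes counted in both libraries did so, and 5 of 56 in stem marker-positive cells, beside 4.02% of 11980. The 8 were 1 of 10 members, 5 of 15 other SIN3 subunits, 1 of 13 recruiters and 1 of 18 genes of other complexes. Well counted genes have narrower intervals and meet this rule more readily, and these shares were not matched for count. Values are log2 ratios, knockout over wild type, first at homeostasis and then after 5-FU. Of the members, Sap30 alone was among them, at 0.12 and -0.36 in all kept cells. Of the other SIN3 subunits, Sap30l was at 0.23 and -0.089, Arid4a at 0.13 and -0.14, and Gatad1 at 0.21 and -0.081. Rbbp4 went the other way, at -0.054 and 0.12, as did Morf4l2, at -0.084 and 0.076. The recruiter Mga was at 0.089 and -0.18, and Chd4 of NuRD at 0.043 and -0.064. In stem marker-positive cells Arid4a was at 0.13 and -0.088, Gatad1 at 0.19 and -0.091, Emsy at 0.12 and -0.12, and Chd4 at 0.054 and -0.084. Mxd3 was there at -0.72 (152 wild-type and 46 knockout UMIs) and 0.69 (44 and 65 UMIs). With 1 pool per genotype in each library the difference between libraries was not tested, and condition and library cannot be told apart.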

How the results depend on the processing

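Sin3b was the only member called under every alternative fit, in all kept and in stem marker-positive cells. The number of genes called in all kept cells was 156, and became 643 with library size scaling, 840 without the low-count filter, 243 with the 80% hashtag rule and 244 when cells with no hashtag UMI were removed before HTODemux, which was chosen after seeing the data. In stem cells it was 382, and became 136 with DESeq2 and 1211 without the low-count filter. In that last fit 2 genes of the partner lists were called, Rbbp7 and Sinhcaf, beside 5.01% of the 24177 genes tested. Leaving out a library, which leaves a value with no test, gave Sin3b log2 ratios of -2.90 to -1.82 in all kept and -2.60 to -1.74 in stem cells. It turned the sign in all kept cells for Kdm5a (-0.0044 to 0.19), Hdac1 (-0.0053 to 0.21) and Sap30 (-0.36 to 0.12), and in stem cells for Sap30 (-0.33 to 0.094) and Suds3 (-0.012 to 0.10). The Sin3b ratio as a mean over classes was -1.99 at homeostasis and -3.02 after 5-FU, where it was -2.68 in thinned cells and -2.63 as a mean per cell. Thinned, the share of knockout cells with a Sin3b UMI was 8.65% and 6.49%, and knockout Sin3b after 5-FU was at 16.9 CPM. With the 80% hashtag rule, Sin3b in wild-type stem cells at homeostasis was at 85.3 CPM. The cause of these shifts was not tested. The fits already paired the genotypes by library as a block, and the labels give no replicate numbers for another pairing. With 4 pools and 1 residual degree of freedom, small changes could not be resolved.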
